A study of Mus musculus with 6 samples.

Results

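The transcripts described here encode the proteins of the cytoplasmic ribosome, measured in ovaries of mouse embryos at E15.5 (days after conception). Members were taken by symbol, in a rule that uses no measured difference but was set with earlier results of these data known: a gene entered when a probe set of the array named it alone and its symbol was that of a large-subunit (Rpl) or small-subunit (Rps) protein, with Rplp0, Rplp1, Rplp2 and Rpsa allowed and kinases and pseudogenes left out. This gave 48 genes out of 18193 named alone by a probe set, read through 104 of 45037 probe sets. Each gene was represented by its brightest probe set over the 6 arrays. The study compared 3 arrays of ovaries labelled as Dmrt1 knockout, from a conditional removal of the gene, with 3 arrays of wild-type ovaries of the same age. The labels name no strain, no Cre driver and no litter. They are also silent on whether each array had its own animals, so every p-value here rests on array-to-array spread that may be only technical. Nothing but the Dmrt1 genotype separates the groups in the labels.

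Ribosomal proteins are made in near-equal amounts for a small and a large subunit, and their mRNAs are among the most abundant in growing cells. Most of these mRNAs begin with a terminal oligopyrimidine tract, a C followed by a run of C and T, through which mTOR signalling and the protein Larp1 control their translation. The amount of ribosomal protein mRNA and its translation can therefore change separately, and an array of total RNA sees only the amount. A few members have paralogues with restricted expression, among them Rpl39l, known from germ cells, and Rpl3l, known from muscle.

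The region around the transcript start is shown for 7 members. Rpl35, Rps6 and Rplp2 stand for the core subunits and the stalk. Rpl39, Rpl39l, Rpl22l1 and Rpl7l1 stand for a core gene and the paralogues discussed further on. Each line runs 5′ to 3′ from 15 bases before the RefSeq transcript start through the first 15 bases of the transcript, with the longest run of C and T in capitals (RefSeq, GRCm38.p6). Rpl35 lies at chr2:39005117-39005146 and Rps6 at chr4:86857353-86857382, both on the minus strand, and Rplp2 at chr7:141447636-141447665 on the plus strand. Rpl39 lies at chrX:37085208-37085237 on the minus strand, Rpl39l at chr16:10170213-10170242 and Rpl22l1 at chr3:28805493-28805522 on the plus strand, and Rpl7l1 at chr17:46782642-46782671 on the minus strand.
Rpl35: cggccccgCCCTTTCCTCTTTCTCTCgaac
Rps6: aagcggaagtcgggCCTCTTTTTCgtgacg
Rplp2: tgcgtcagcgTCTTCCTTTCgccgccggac
Rpl39: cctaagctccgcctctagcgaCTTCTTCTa
Rpl39l: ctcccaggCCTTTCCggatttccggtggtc
Rpl22l1: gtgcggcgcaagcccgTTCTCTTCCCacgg
Rpl7l1: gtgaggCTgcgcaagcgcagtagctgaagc

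The longest C and T run in this 30-base window was 18 bases in Rpl35 and 10 bases in Rps6, Rplp2 and Rpl22l1, against 8 in Rpl39, 7 in Rpl39l and 2 in Rpl7l1. A run of at least 8 bases was found at 1 or more listed starts in 19 of the 43 members with a RefSeq start region (44.2%), in 9 of 69 mitochondrial ribosomal protein genes (13%) and in 14% of all 17492 protein-coding genes with a start region. A start read exactly as C followed by at least 4 bases of C or T was listed for 8 of the 43 members (18.6%) and for 2.67% of all genes. A run in this window can also lie partly or wholly before the start, outside the transcript, as the marked run of Rpl39l does. RefSeq starts can lie some bases away from the start used in a tissue, so a missing run says only that these letters are not in this window.

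The letters CCGGAAG, the core of sites for ETS factors, were searched on both strands of the 300 bases from 250 before to 50 after each start. They occurred in 21 of 43 members (48.8%), in 26 of 69 mitochondrial ribosomal protein genes (37.7%) and in 12.9% of all genes. GGGCGG occurred in 58.1% of members and 49.2% of all genes, and TATAAA in 14% and 14.8%. ACATTGT, letters at the centre of sites for DM-domain proteins such as Dmrt1, occurred in 0 of 43 members and in 2.88% of all genes. These are matches of letters, not sites.

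Arrays within a group correlated at 0.986 to 0.993 in log2 intensity and arrays of different groups at 0.973 to 0.980. The germ cell markers Ddx4, Dazl, Sycp3, Sycp1, Stra8, Mael and Tex101 and the 5 pregranulosa markers were all above the filter level in these arrays labelled as ovary. Xist, which marks the silenced X chromosome of female cells, read log2 1.81 over 3 probe sets on knockout replicate 1 against 9.75 to 10.9 on the other 5 arrays, so member values without that array are also given. Summed over each marker list, knockout intensities were 13348 to 17340 for germ cells (wild type 12532 to 15061), 9724 to 10936 for pregranulosa cells (8961 to 9436) and 23131 to 23809 for stroma (26457 to 28459). They were 717 to 836 for endothelium (wild type 1025 to 1174), 1830 to 3100 for macrophages (3063 to 3780) and 315 to 478 for red cells (475 to 1282). They were 238 to 263 for mesonephros (wild type 188 to 229) and 27 to 40 for Sertoli cells (36 to 38), whose markers Amh and Dhh were under the filter. By limma 2 of 3 tested endothelial, 2 of 5 macrophage and 1 of 2 red cell markers fell and no other listed marker passed. Their part in the member values was not tested, and in whole ovaries fewer cells of a type and less RNA per cell cannot be told apart.

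Array signals of ribosomal protein transcripts differed little between knockout and wild-type ovaries. Of the 48 members, 44 were bright enough to test (log2 intensity of at least 4 on at least 3 arrays), and 0 rose and 0 fell by limma with Benjamini-Hochberg adjustment over all 22040 tested probe sets. Over all 11897 tested genes, 1.28% rose and 2.27% fell, 3.55% in all. At an unadjusted p under 0.05, 1 member passed, Rpl39l, against 17.4% of all tested genes. The median log2 difference, knockout minus wild type, was 0.01 over the members and 0.02 over all tested genes. The median size of the difference regardless of sign was 0.043 log2 units for members and 0.165 for all tested genes. Differences were positive for 26 members and negative for 18.

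The intervals describe the change in array signal given the array-to-array spread, and they set no limit on the change in RNA. The 95% limma interval lay wholly within 0.3 log2 units of no difference for 33 of 44 members, against 8.86% of all tested genes, and within 0.5 log2 units for 41 of 44, against 43.4%. The 3 members whose interval reached further were Rpl39l, Rps25 (-0.50 to 0.35) and Rpl12 (-0.50 to 0.40, named after its values were seen). The median member interval reached 0.20 log2 units from no difference at its farther bound, and the median standard error was 0.07 for members and 0.16 for all genes.

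**Figure D1:**
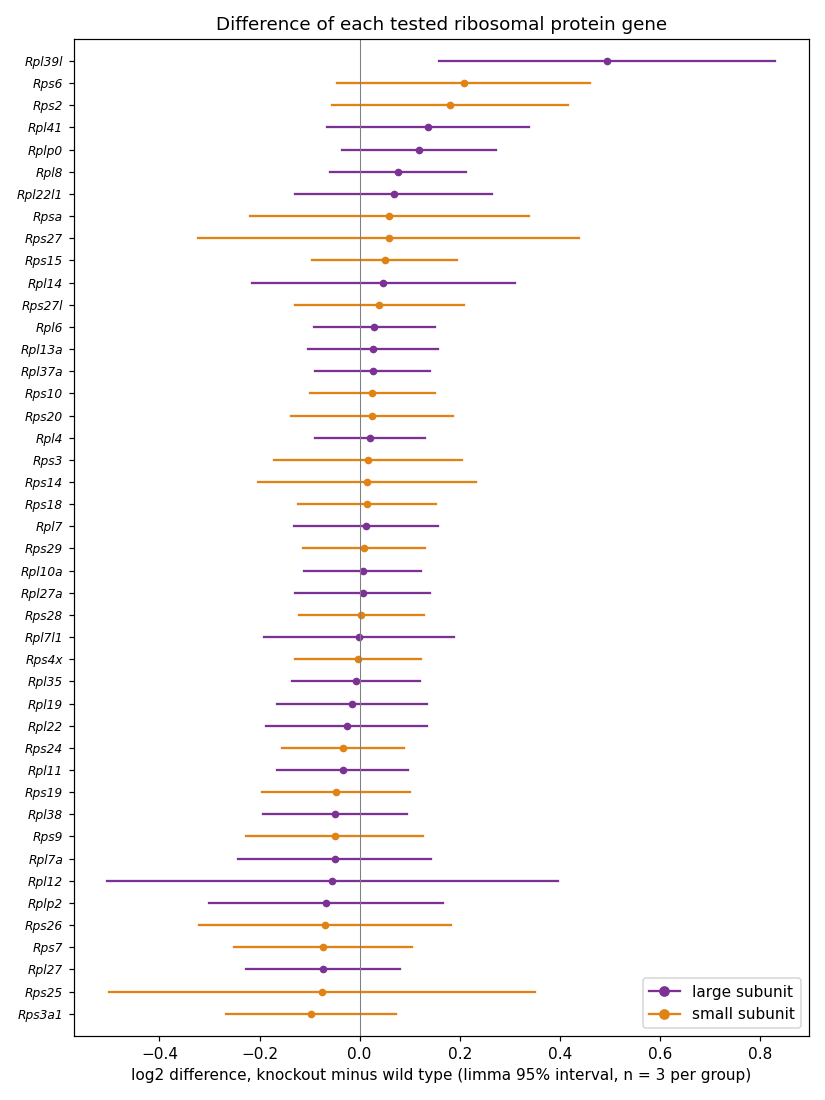
Log2 difference, knockout minus wild type, of the 44 tested ribosomal protein genes, with points for the estimate and bars for limma's 95% interval (n = 3 per group), large-subunit genes in purple and small-subunit genes in orange. Of the 44 intervals, 43 include no difference, and the interval of Rpl39l runs from 0.16 to 0.83.

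Level bears on these intervals. Of the 48 members, 31 had a mean log2 intensity of at least 13, near the highest value on any array, log2 14.41, and of the 100 brightest probe sets 29 named a member alone and 45 named a ribosomal protein gene among several names. A probe near the top of an array's range can respond less than in proportion to its RNA, and whether it did here was not tested. Normalization between arrays can also lessen a shift that most of the brightest probe sets share. Its settings are not given, so a small member median sets no limit on such a shared shift. Other genes with a mean log2 of at least 12 numbered 652, with a median size of the difference of 0.075 and 394 intervals within 0.3 log2 units. The 37 members that bright had a median size of 0.034 and 32 intervals within 0.3. The median level of these members was log2 13.6, against 12.46 for the 652 other genes. The comparison is therefore not matched for level. Among those 652 genes 0 rose and 9 fell, with 75 at an unadjusted p under 0.05.

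**Figure D2:**
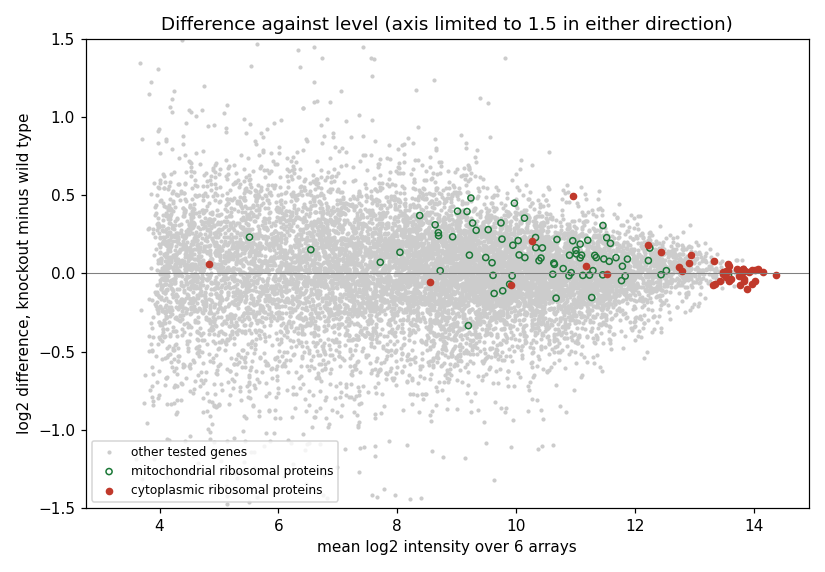
Log2 difference, knockout minus wild type, against mean log2 intensity over the 6 arrays for all 11897 tested genes in grey, the 44 cytoplasmic ribosomal protein genes in red and the 76 mitochondrial ones in open green, with the vertical axis limited to 1.5 in either direction. Red points gather at the bright end close to 0, and green points lie at lower levels, most of them above 0.

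Differences were small in both subunits. Of 23 tested large-subunit genes 13 differed upward and 10 downward (median 0.01, range -0.07 to 0.49), and of 21 small-subunit genes 13 differed upward and 8 downward (median 0.01, range -0.10 to 0.21). No call was made in either subunit by limma, with 1 large-subunit gene and 0 small-subunit genes at an unadjusted p under 0.05.

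The stalk of the large subunit, which recruits translation factors, was read through Rplp0 and Rplp2. Rplp0, the protein at the base of the stalk, read log2 12.97, 13.03 and 12.99 on knockout replicates 1 to 3 and 12.79, 12.89 and 12.95 on wild-type replicates 1 to 3. Every knockout array lay above every wild-type array, by a difference of 0.12 ± 0.07 (SE, n = 3 per group) that did not pass (limma adjusted p = 0.374). Rplp2, one of the acidic stalk proteins, read 14.09, 13.67 and 14.05 in knockout and 14.13, 13.94 and 13.94 in wild type. Its groups overlapped, with knockout replicate 2 lowest, and it differed by -0.07 ± 0.10. Rpsa, a small-subunit protein also known as the laminin receptor, read 13.65, 13.31 and 13.80 against 13.66, 13.60 and 13.32 and differed by 0.06 ± 0.13.

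Among core genes outside the stalk, Rps6 had the largest positive difference. Rps6 is the small-subunit protein phosphorylated by S6 kinase downstream of mTOR. It read log2 10.27, 10.48 and 10.37 in knockout and 10.10, 10.12 and 10.27 in wild type, with knockout replicate 1 and wild-type replicate 3 at the same rounded level. The difference of 0.21 ± 0.11 did not pass (limma adjusted p = 0.342, 95% interval -0.04 to 0.46). Rps2, a protein at the entrance of the mRNA channel, read 12.35, 12.20 and 12.36 against 12.33, 12.11 and 11.93. Wild-type replicate 3 was its lowest array, and the difference was 0.18 ± 0.11 with it and 0.086 without it. Rpl41, a very short large-subunit protein, read 12.51, 12.46 and 12.51 against 12.46, 12.44 and 12.17, again with wild-type replicate 3 lowest (0.14 ± 0.09, or 0.043 without that array). Another Rpl41 probe set of nearly the same mean level (log2 12.42 against 12.43) differed by -0.04, and the dimmer ones by 0.03 and -0.27.

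At the other end of the order, the 5 members with the largest negative differences were Rps3a1, Rps25, Rpl27, Rps7 and Rps26, at -0.10 to -0.07. Rps3a1 read log2 13.95, 13.67 and 13.89 in knockout and 13.99, 13.90 and 13.90 in wild type, and its difference of -0.10 ± 0.08 did not pass (limma adjusted p = 0.526). In Rps3a1, Rpl27, Rps7 and Rps26 knockout replicate 2 was the lowest of the 6 arrays, while the other knockout arrays lay within or close to the wild-type range. Without knockout replicate 2 Rps3a1 differed by -0.014, Rpl27 by -0.011, Rps7 by 0.012 and Rps26 by 0.059. Rps25, a small-subunit protein used by some internal ribosome entry sites, read 10.08, 10.08 and 9.45 against 9.94, 9.71 and 10.19, with knockout replicate 3 alone below the wild-type arrays.

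**Figure D3:**
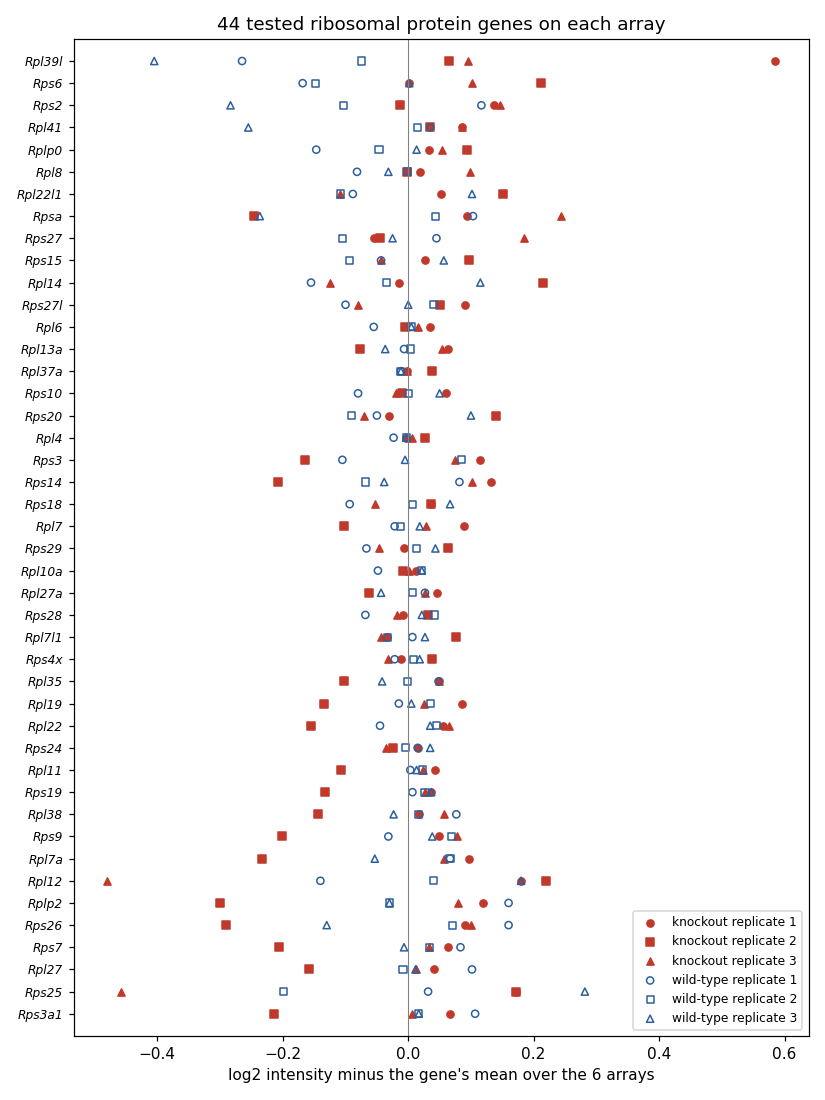
Log2 intensity of each of the 44 tested members on each array, minus the gene's mean over the 6 arrays, with knockout arrays filled in red and wild-type arrays open in blue and the marker shape giving the replicate number. Knockout replicate 2 (red squares) lies farthest to the left in many of the lower rows, and for most genes red and blue markers mix.

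Knockout replicate 2 was often the lowest array over the members. It was the lowest of the 6 for 19 of 44 members, against 16.8% of all tested genes, and the highest for 12, against 21.3%. Knockout replicate 1, the array low in Xist, was the lowest for 0 members, against 17.6% of all tested genes, and the highest for 14, against 16.8%. The median distance of an array from the mean of its 2 group mates was 0.15 log2 units for knockout replicate 2 and 0.04 to 0.08 for the other 5 arrays, and over all tested genes it was 0.21 for knockout replicate 2 and 0.13 to 0.21 for the others. Without knockout replicate 2 the member median was 0.03, and without knockout replicate 1 it was 0.0001, with 0 members called in either fit. Rps4x, an X-linked member, read 13.47 on knockout replicate 1 and 13.45 to 13.52 on the other 5 arrays.

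Paralogues were read for 5 members, and 4 of them were tested. Rpl39l, the germ cell paralogue of Rpl39, had the largest difference of all members. It read log2 11.54, 11.02 and 11.05 on knockout replicates 1 to 3 and 10.69, 10.88 and 10.55 on wild-type replicates 1 to 3. Every knockout array lay above every wild-type array, and knockout replicate 1 stood above the other knockout arrays. The mean was 11.20 ± 0.29 (SD, n = 3) in knockout and 10.71 ± 0.17 in wild type, a difference of 0.49 ± 0.15 (SE), or 1.41-fold, with a 95% interval of 0.16 to 0.83. It did not pass (limma adjusted p = 0.0872). It passed with array weights (0.58, limma adjusted p = 0.0401). Knockout replicate 1, the array low in Xist, had a weight of 1.12, against 0.58 and 0.55 for knockout replicates 2 and 3. The wild-type arrays had weights of 1.08 to 1.65. How far the weighted call rests on knockout replicate 1 was not tested. Over the other alternatives the limma adjusted p was 0.0568 to 0.267. Leaving out knockout replicate 1 gave a difference of 0.33, and leaving out wild-type replicate 3 gave 0.42.

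Tested members with no overlap between groups were Rpl39l, Rplp0, Rpl8 and Rpl37a, all higher in knockout, 4 of 44 against 12.3% of all tested genes, and 0 of 44 were lower throughout, against 11.4%. Rpl8 and Rpl37a, named after their values were seen, differed by only 0.08 ± 0.06 and 0.03 ± 0.05. Beside Rpl39l, the germ cell markers Ddx4 (0.43 ± 0.16, limma adjusted p = 0.161) and Dazl (0.48 ± 0.19, 0.183) also read highest on knockout replicate 1, as did Mael and Stra8. Of the other 5 germ cell markers Mael differed by 0.19 ± 0.11, Sycp3 by 0.0049 ± 0.10, Sycp1 by -0.08 ± 0.14, Stra8 by -0.17 ± 0.21 and Tex101 by -0.21 ± 0.23, and the median of all 7 was 0.0049. None of the 7 germ cell markers passed (limma), 2 had an unadjusted p under 0.05, and Ddx4 alone did not overlap. The part of germ cell content in the Rpl39l value was not tested.

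Rpl22l1, the paralogue whose expression Rpl22 is known to restrain, read log2 12.96, 13.06 and 12.80 in knockout and 12.82, 12.80 and 13.01 in wild type. Its groups overlapped, and the difference of 0.07 ± 0.09 had an interval of -0.13 to 0.26. Rps27l, a paralogue of Rps27 known as a p53 target, read 12.83, 12.79 and 12.66 against 12.64, 12.78 and 12.74 (0.04 ± 0.08, interval -0.13 to 0.21). Rpl7l1, a paralogue of Rpl7, read 11.50, 11.61 and 11.49 against 11.54, 11.50 and 11.56 (-0.002 ± 0.085, interval -0.19 to 0.19). The core genes Rpl22, Rpl7, Rps27 and Rps4x differed by -0.03, 0.01, 0.06 and -0.004. Rps27 was read at log2 4.72 to 5.01 only, close to the filter level.

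**Figure D4:**
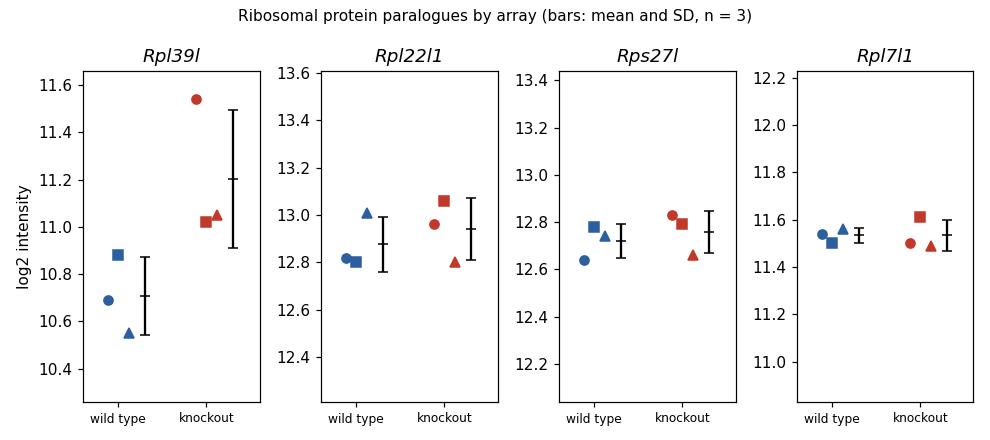
Log2 intensity of 4 tested paralogues on each array, wild type in blue and knockout in red, with the marker shape giving the replicate number and black bars the mean and SD (n = 3), on vertical axes of equal span. Rpl39l is the panel in which the knockout arrays (11.02 to 11.54) all lie above the wild-type arrays (10.55 to 10.88).

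The 4 members under the filter were Rpl39, Rpl37, Rps16 and Rpl3l. Rpl39 read log2 3.60 to 3.78, Rpl37 3.65 to 4.07, Rps16 0.95 to 1.44 and Rpl3l, the muscle paralogue of Rpl3, 2.36 to 2.58. Rpl39, Rpl37 and Rps16 are core proteins of the ribosome, their low readings are not taken as levels of the genes, and the paralogue Rpl39l could not be set beside Rpl39. A further 28 ribosomal protein symbols appeared only on probe sets that named several genes and are not described as genes here.

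Several members were read by more than 1 tested probe set, and these did not always agree. Among 21 such genes the probe sets of a gene differed in sign for 16, and the median range of their log2 differences was 0.16. Over all 91 tested probe sets naming a member alone, 0 passed by limma (of all tested probe sets 6.6% did, 1.46% higher and 5.15% lower), 3 had an unadjusted p under 0.05, against 20.7%, and the median difference was 0.01. The 3 were those of Rpl39l, 1 of the 4 of Rpl13a (0.22 ± 0.07, limma adjusted p = 0.119) and 1 of the 3 of Rpl22 (0.21 ± 0.07, 0.125), Rpl13a being named after its values were seen. Every knockout array lay above every wild-type array for 9 of the 91 (11.2% of all tested probe sets) and below for 1 (15.2%). The interval lay within 0.5 log2 units of no difference for 80 (36.7%) and within 0.3 for 60 (7.14%). The brightest probe sets of Rpl13a and Rpl22 differed by 0.03 and -0.03. The widest ranges belonged to Rps9 (-0.34 to 0.10 over 3 probe sets), Rpl41 (-0.27 to 0.14 over 4) and Rpl35 (-0.25 to 0.09 over 6), and in each the lowest value came from its dimmest probe set.

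**Figure D5:**
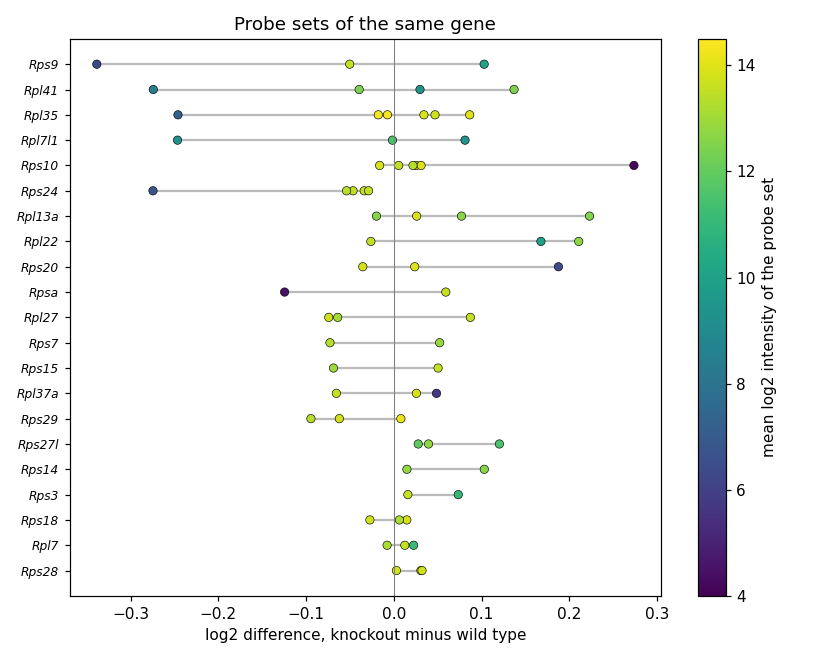
Log2 difference, knockout minus wild type, of every tested probe set of the 21 members with more than 1, 1 row per gene, coloured by the probe set's mean log2 intensity. The rows run from Rps28 at the bottom to Rps9 at the top, whose probe sets span 0.44 log2 units, and the points farthest from 0 are mostly dim (dark) ones.

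Genes that build, feed and regulate the ribosome were read from lists chosen by function. Fau, which encodes ribosomal protein S30 fused to a ubiquitin-like protein, read log2 13.26 to 13.41 on the knockout arrays and 13.35 to 13.39 on the others (-0.01 ± 0.06). Of 18 other genes of the translation apparatus whose mRNAs are of the terminal oligopyrimidine kind, 0 passed by limma, also at an unadjusted p under 0.05. Their differences ran from -0.09 to 0.13 (median 0.06), with the elongation factor Eef2 at 0.13 ± 0.07, the initiation factor subunit Eif3f at 0.11 ± 0.08 and Eef1d at 0.08 ± 0.07. Of 29 other initiation factors and their regulators 0 passed by limma and 2 had an unadjusted p under 0.05, Eif3b (0.42 ± 0.15) and the cap-binding inhibitor Eif4ebp1 (0.33 ± 0.13), with a list median of 0.07. Of 14 genes listed under elongation and termination factors 0 passed by limma, with a list median of 0.10. In that list 1 gene had an unadjusted p under 0.05, Eef1e1 (0.62 ± 0.22, limma adjusted p = 0.132). Eef1e1 had a low mean level (log2 5.11), and its role as such a factor was not checked. Eef2k, the kinase that inhibits Eef2, differed by -0.24 ± 0.11 and Eefsec, the selenocysteine elongation factor, by 0.29 ± 0.13.

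Ribosome assembly genes held 1 of the 3 calls in these lists, all 3 of them higher in knockout. Over all tested genes 1.28% were called higher and 3.55% were called in either direction. Nhp2, a protein of the particles that modify ribosomal RNA and of telomerase, read log2 10.53, 10.34 and 10.43 in knockout and 9.96 ± 0.04 (SD, n = 3) in wild type, with no overlap. It rose 1.39-fold (0.47 ± 0.11, limma adjusted p = 0.0286), and 51 of the 52 tested failed the threshold. Nhp2, and Polr1c below, were each read through an s probe set, a class that an alternative setting leaves out. Imp4, of the small-subunit processome, differed by 0.45 ± 0.12 (0.0622) and Rrp9, which binds the U3 particle, by 0.56 ± 0.17 (0.0822). The list median was 0.09, 35 genes differed upward, and 10 of 52 had every knockout array above every wild-type array, against 12.3% of all tested genes. By limma 6 of 52 assembly genes and 4 of 14 RNA polymerase I genes had an unadjusted p under 0.05, against 17.4% of all tested genes. Of 14 RNA polymerase I genes Polr1c, a subunit shared with RNA polymerase III, rose 1.28-fold (0.36 ± 0.09, 0.0378), and 13 did not pass, with Taf1d at 0.38 ± 0.13 and Polr1b at -0.62 ± 0.22 and a median of 0.04.

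Mitochondrial ribosomal proteins, which make the ribosome of mitochondria, differed upward for 59 of 76 tested genes, with a median of 0.11, while 6354 of all 11897 tested genes did so, with a median of 0.02. Mrps23, a small-subunit member, read log2 9.42, 9.55 and 9.47 in knockout and 9.03, 8.93 and 9.03 in wild type and rose 1.40-fold (0.48 ± 0.12, limma adjusted p = 0.0446), and 75 did not pass. Mrpl28 differed by 0.45 ± 0.13 (0.0762) and Mrps22 by 0.35 ± 0.11 (0.102). Every knockout array lay above every wild-type array for 16 of 76 genes, against 12.3% of all tested genes, and below for 0, against 11.4%. By limma 10 of 76 had an unadjusted p under 0.05, against 17.4% of all tested genes. The 1 call of 76 stands beside 1.28% of all tested genes called higher. Whether mitochondrial and cytoplasmic ribosomal proteins differ from each other was not tested.

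Regulators of ribosomal protein mRNAs gave no call. Counts at an unadjusted p under 0.05 (limma) in this paragraph stand beside 17.4% of all tested genes. Of 19 tested genes of the mTOR pathway and the Myc network 0 passed by limma and 3 had an unadjusted p under 0.05, all lower in knockout: Rps6kb2, an S6 kinase (-0.59 ± 0.17, adjusted p = 0.0633), Larp1, which binds terminal oligopyrimidine mRNAs (-0.33 ± 0.10, 0.0912), and Tsc1, which restrains mTOR (-0.26 ± 0.10, 0.193). Larp1 read log2 11.49, 11.34 and 11.19 in knockout and 11.59, 11.66 and 11.76 in wild type, with no overlap. The RNAs of snoRNA host genes carry guides for ribosomal RNA modification and are often of the same oligopyrimidine kind. Of 10 such genes 0 passed by limma and 1 had an unadjusted p under 0.05. Differences were downward for 8 of them (median -0.12), while 5543 of all 11897 tested genes differed downward. Snhg12 differed by -0.48 ± 0.15 (limma adjusted p = 0.0904), Snhg5 by -0.20 ± 0.10 and Snhg8 by -0.23 ± 0.12. The calls of Polr1c and Mrps23 each ended when any single array was left out, and that of Nhp2 in 4 of those 6 fits.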

How the data were processed

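Values are those of the authors' deposited table: for every probe set a linear intensity, made with GCRMA (background adjustment, normalization and probe summary) per the submitters' processing notes, with version and settings not given in the sources used here. Such values carry no detection calls, and the number of arrays limits the precision. The log2 of each was used. Of 45101 probe sets, 64 were controls and left out, and 22040 reached log2 4 on 3 or more of the 6 arrays and were tested with limma 3.58.1 in R 4.3.3 (lmFit, eBayes with intensity trend, 2-sided). P-values were adjusted by Benjamini-Hochberg over all of them at 0.05, and errors are moderated standard errors. Gene names came from the platform annotation, where 34945 probe sets name 1 gene, 932 several and 9160 none. All 48 member symbols matched the RefSeq table of GRCm38.p6.

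The member rule uses symbols and not measured differences, but members, lists and named genes were all chosen with earlier results of these data known. The rule names the 5 largest differences in each direction, paralogues with their parent genes, members under the filter, stalk genes with Rpsa, the 3 members whose probe sets differ most, Fau, and 3 genes per list with the smallest p. The fit was tested on simulated data, with 50 changed probe sets of each size drawn from all tested ones. It called 0 of 50 changes of 0.25 log2 units, 6 of 0.5, 19 of 1 and 46 of 2. In the real data all tested probe sets had a median standard error of 0.17, against 0.07 for members, and 1455 passed. The simulated counts therefore do not give the share of member changes that would be called. Alternatives were other filters, priors, array weights, a replicate block, normalizations, probe set choices and leaving out each array.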

Additional observations from a re-analysis of the deposited data

How the results depend on the processing

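Of the tested members, Rpl39l with array weights was the 1 call made under any of 17 alternatives. The member median ran from -0.0037 to 0.03. The other lists gave 3 calls, and 6 with array weights, 1 with the stricter filter, 0 with averaged probe sets and 0 to 4 without 1 array (0 without knockout replicate 1 or any 1 wild-type array). All probe sets gave 1455 calls (22.1% higher), 3282 with no filter (40.4% higher), 644 with the stricter filter and 808 to 1541 without 1 array (879, 808 and 910 without wild-type replicates 1, 2 and 3). Averaging probe sets gives genes, so it has no such count. With the replicate number as a block 0 members, 0 list genes and 1043 probe sets passed, and Rpl39l had a limma adjusted p of 0.13. Deviations of same-numbered arrays from their group means correlated at -0.248 to -0.165. These few values cannot tell whether such arrays share a litter or handling, which the labels do not state.

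These sign changes came with no call, and the cause was not tested. With averaged probe sets Rpl41 was -0.037, Rpl22 0.12, Rpsa -0.033, Taf1d -0.050 and Tsc1 0.15. Without x and s probe sets Rpl41 was -0.27, Rpl22 0.21, Eef1d -0.043 and Rpl35 0.047. Rpl7l1 was 0.0054 with bright-probe centring and 0.0090 with median centring. Rpl35 was 0.0097 with array weights, 0.0032 with median centring and 0.0069 with quantile normalization. Leaving out single arrays gave -0.19 to 0.13 for Rps25, -0.12 to 0.012 for Rps7, -0.15 to 0.059 for Rps26, -0.063 to 0.045 for Rpl22, -0.042 to 0.021 for Rpl7l1 and -0.027 to 0.065 for Rpl7. It gave -0.021 to 0.099 for Rps27, -0.14 to 0.065 for Rplp2, -0.049 to 0.20 for Rpsa, -0.042 to 0.035 for Fau, -0.10 to 0.038 for Rps9 and -0.032 to 0.042 for Rpl35.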

Other observations

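Rps4l, which RefSeq lists as a transcribed pseudogene related to Rps4x, was left out of the members. Its probe set read log2 10.41, 9.51 and 9.65 on knockout replicates 1 to 3 and 9.33, 9.72 and 9.28 on wild-type replicates 1 to 3. Its groups overlapped, knockout replicate 1 stood above the other 5 arrays, and the difference of 0.42 ± 0.23 (SE, n = 3 per group) did not pass (limma adjusted p = 0.338). Without knockout replicate 1 it was 0.14.

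Probe sets that name a ribosomal protein gene among several names numbered 110, and 99 of them were tested. By limma 0 passed, against 6.6% of all tested probe sets, and 4 had an unadjusted p under 0.05, against 20.7%. Their median difference was -0.02, within a range of -0.69 to 0.68, and 72 had an interval within 0.3 log2 units of no difference, against 7.14% of all tested probe sets.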
